A study of Mus musculus with 6 samples.

Results

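The genes described here are 7 subunits of the GABA-A receptor, Gabra2, Gabra3, Gabra4, Gabra5, Gabrb1, Gabrb2 and Gabrd, taken by symbol from the 54838 genes counted in hippocampal RNA. Gabrb2 was included because the study had picked it from these libraries for measurement by PCR, so its result below is not independent of that choice. The PCR, on RNA of other mice, also gave a lower level of Gabrb2 in transgenic animals. That fall was smaller than the fall in the libraries and was not significant in the study's Tukey test. RNA was sequenced from the hippocampi of 3 wild-type females and 3 females of the transgenic line FVB/NJ-Tg(Orai1)Ibd, all aged 7 months, with 1 library for each animal. The transgene carries the coding sequence of human ORAI1, the pore of the store-operated calcium channel, in a Thy1 cassette that is active in neurons, and the study used the line to ask how more ORAI1 alters calcium signals and gene expression. The transgenic animals were of 1 line. The numbers 1 to 3 in the labels name the libraries within a genotype.

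The GABA-A receptor is the chloride channel through which GABA inhibits most neurons of the forebrain. Each channel is a ring of subunits made of alpha and beta subunits, between which GABA binds, completed by a gamma or a delta subunit. The alpha subunit sets where the channel sits and how long it stays open. In the hippocampus the alpha 2 subunit is known from synapses on the axon initial segment of pyramidal neurons, alpha 5 from channels outside the synapses of CA1 and CA3 dendrites, and alpha 4 with delta from the steady current of dentate granule cells. The beta 2 subunit belongs to the most common receptor of the brain.

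Total counts lay between 37710188 and 52497799 in wild-type and between 37414241 and 47027279 in transgenic libraries. Orai1 checked the labels, with 7.16 to 8.08 normalized counts (CPM, relative to the scaled library total) in wild-type and 313.4 to 331.1 CPM in transgenic libraries. All 7 subunits passed the filter on low counts, with counts from 562 for Gabrd to 13862 for Gabrb1 in single libraries. All 8 markers of neurons and all 8 of dentate granule cells were detected, and none of the markers of any list was at 0 in every library. A list of 12 choroid plexus markers, genes of the epithelium next to the hippocampus, was lower in transgenic mice in 12 of 12 genes, and its summed level was 2449 to 4377 CPM in wild-type and 254.3 to 483.6 CPM in transgenic libraries. The first principal component of the differences between libraries of the same genotype took 65.9% of their variance over 11191 genes. It separated wild-type 1, wild-type 2 and transgenic 1 from wild-type 3, transgenic 2 and transgenic 3, and its most extreme score was that of transgenic 1. The GC content of a transcript went with its fold change over all genes, with Spearman's rho of 0.383 across 19079 genes, which are not independent replicates.

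Of the 7 subunits, Gabrb2 was lower in transgenic hippocampi and the other 6 did not pass the test. Gabrb2 fell by 31.9%, from 119.5 ± 8.80 CPM in the wild-type to 81.4 ± 6.47 CPM in the transgenic group (mean ± SD, n = 3). The other 6 had log2 fold changes between -0.18 for Gabrb1 and -0.020 for Gabra3. Among the 19087 genes tested, 4.00% were lower and 3.10% were higher at an adjusted p below 0.05 in edgeR's quasi-likelihood test, against 1 of 7 and 0 of 7 subunits, and at an unadjusted p under 0.05 the counts were 2 of 7 and 0 of 7, against 14.8% and 13.0% of all genes. The estimated log2 fold change was below 0 for 7 of 7 subunits, as it was for 51.7% of all genes, and the median of the 7 was -0.15 beside -0.010 for all genes. When the trend on GC content was removed from each library, the median of the 7 was -0.026 and the values of Gabra2 and Gabra3 were above 0. Transcripts of 6 of the 7 subunits have a GC content below the median of the tested genes, 49.5%. In whole tissue, fewer cells of a type and less RNA in each cell cannot be told apart.

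**Figure D1:**
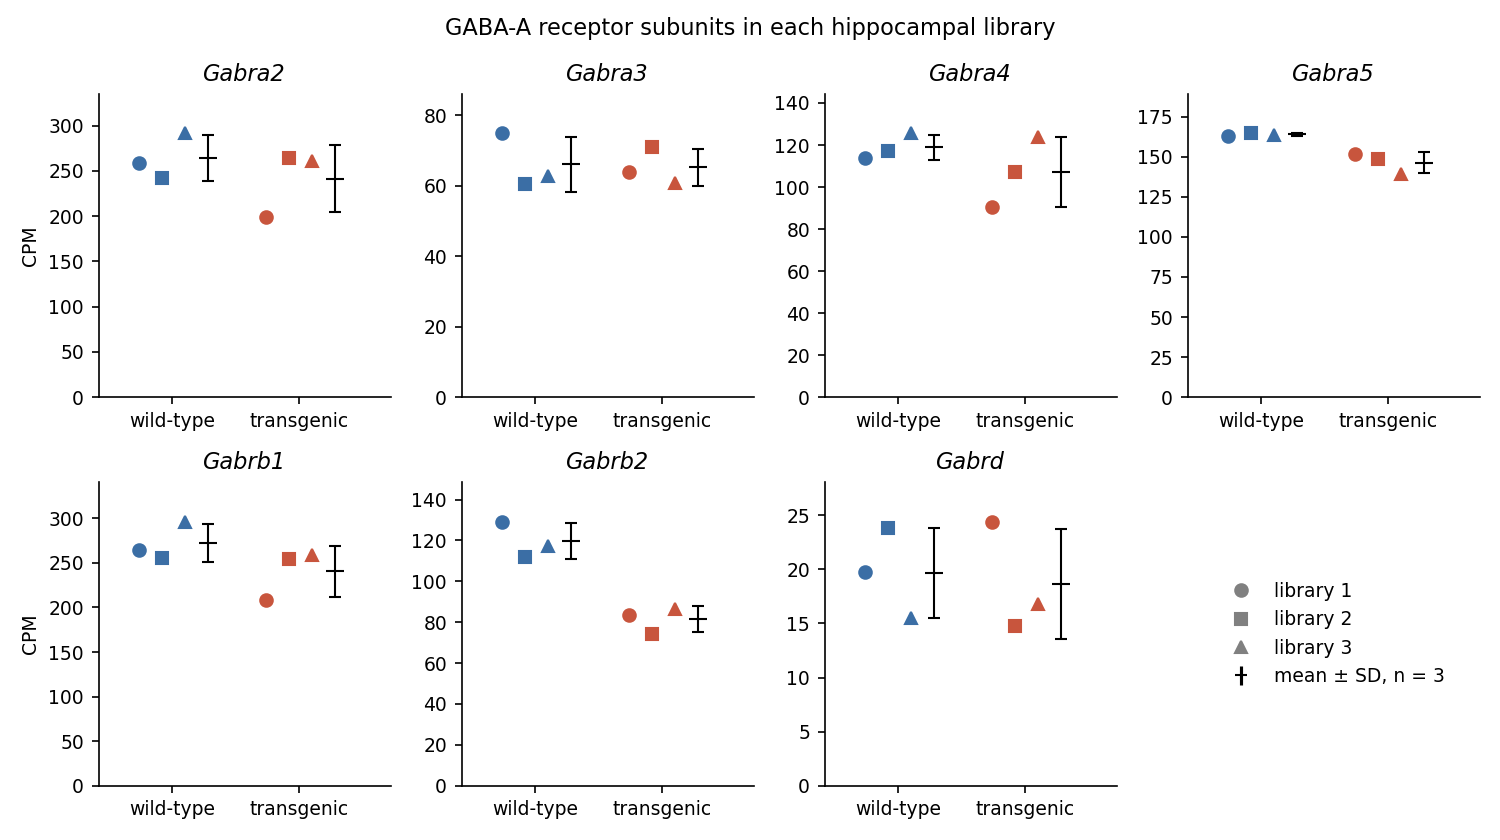
Normalized counts (CPM) of the 7 GABA-A receptor subunits in each library (vertical axis, from 0), with a marker shape for the library number, blue for wild-type and red for transgenic mice, and the mean ± SD of 3 libraries in black. The transgenic values of Gabrb2, at most 86.6 CPM, lie below all wild-type values, at least 112.0 CPM, and Gabra5 is the other subunit whose groups do not overlap.

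Gabrb2 (ENSMUSG00000007653) encodes the beta 2 subunit and is on the plus strand of chromosome 11 in GRCm38, from 42419757 to 42629028. It had 129.2, 112.0 and 117.4 CPM in wild-type 1 to 3 and 83.5, 74.2 and 86.6 CPM in transgenic 1 to 3. The highest transgenic library was below the lowest wild-type library, which is the case for 17.9% of all genes tested. The log2 fold change was -0.55 with a standard error (SE) of 0.076 and a 95% confidence interval from -0.73 to -0.38 (edgeR's adjusted p = 0.0144). This value ranks 1055 from the lowest among the 19087 genes. With GC offsets the log2 fold change was -0.45 and edgeR's adjusted p was 0.0415, where 1.29% of all genes were lower and 0.864% higher. The call was lost without wild-type 1 (log2 fold change -0.48, edgeR's adjusted p = 0.0858), without wild-type 2 (-0.58, edgeR's adjusted p = 0.0522) and without transgenic 3 (-0.58, edgeR's adjusted p = 0.0539), and it held without each of the other 3 libraries.

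RefSeq gives 3 starts of Gabrb2 on GRCm38.p6, and the 250 bases before the first of them, chr11:42420190-42420439 on the plus strand, are shown because Gabrb2 is the subunit that passed the test. This window lies inside the annotated gene and in none of its exons. The stretch before Gabra5, chr7:57510060-57510309 on the minus strand, belongs to the other subunit whose groups did not overlap. That before Gabra2, chr5:71095850-71096099 on the minus strand, belongs to the subunit that came next to Gabra5 in level per length among the 7. Capitals mark every match on either strand to GGGCGG, the GC box, to TGACG, the core of the cAMP response element, and to TATAAA, the TATA box, and no 2 matches overlap.
Gabrb2: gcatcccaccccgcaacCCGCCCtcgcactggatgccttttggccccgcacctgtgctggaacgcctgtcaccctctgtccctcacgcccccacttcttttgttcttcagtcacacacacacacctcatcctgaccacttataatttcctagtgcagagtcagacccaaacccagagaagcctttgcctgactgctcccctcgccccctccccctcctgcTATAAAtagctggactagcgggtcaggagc
Gabra5: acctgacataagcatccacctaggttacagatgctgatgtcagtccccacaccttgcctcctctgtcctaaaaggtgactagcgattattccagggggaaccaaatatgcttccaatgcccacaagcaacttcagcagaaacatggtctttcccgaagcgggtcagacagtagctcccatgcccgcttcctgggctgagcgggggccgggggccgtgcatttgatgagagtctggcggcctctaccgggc
Gabra2: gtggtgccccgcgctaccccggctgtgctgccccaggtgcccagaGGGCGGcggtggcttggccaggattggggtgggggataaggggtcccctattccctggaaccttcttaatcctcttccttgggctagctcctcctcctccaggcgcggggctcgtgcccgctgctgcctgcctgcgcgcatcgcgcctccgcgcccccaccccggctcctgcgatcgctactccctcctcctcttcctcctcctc

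The window shown for Gabrb2 holds a TATA box that begins 30 bases before the start, and a GC box. The windows before its other 2 starts hold none of the 3 motifs, and their GC content is 54.0% and 36.8%. A TATA box is present in 12.4% and a GC box in 32.7% of the 32817 RefSeq windows of this length, and TGACG in 17.7%. None of the 3 motifs is in the window of Gabra5, and that of Gabra2 holds a single GC box. The GC content of the window shown is 58.8% for Gabrb2, 56.4% for Gabra5 and 70.0% for Gabra2, with a median of 52.4% over all windows. CG pairs number 8 in the window shown for Gabrb2, 9 in that of Gabra5 and 18 in that of Gabra2, against a median of 6. Windows were found for 6 of the 7 subunits, all but Gabrd. The counts do not tell which start was used.

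Gabrb1, the beta 1 subunit (ENSMUSG00000029212, chromosome 5 of GRCm38 from 71658113 to 72149037, plus strand), had 264.8, 255.7 and 296.4 CPM in wild-type and 208.1, 253.9 and 259.1 CPM in transgenic libraries. Transgenic 1 was the lowest library, and the other transgenic libraries lay within the wild-type range or just below it. The log2 fold change was -0.18 (SE 0.094, edgeR's adjusted p = 0.259). It was -0.026 with GC offsets and -0.086 without transgenic 1. The log2 ratio of Gabrb2 to Gabrb1 per length was -0.066 ± 0.15 in wild-type and -0.44 ± 0.23 in transgenic libraries (SD, n = 3), and the groups overlapped, with p = 0.2 in an exact two-sided permutation test.

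Among the alpha subunits, Gabra5 (ENSMUSG00000055078, chromosome 7 of GRCm38 from 57407672 to 57510059, minus strand) had 163.2, 164.8 and 163.8 CPM in wild-type and 151.5, 148.7 and 139.1 CPM in transgenic libraries, so that every transgenic library was below every wild-type library. The log2 fold change was -0.16 with a 95% confidence interval from -0.27 to -0.056, and it did not pass the threshold (edgeR's adjusted p = 0.0708). With GC offsets it was -0.097.

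Gabra2 (ENSMUSG00000000560, chromosome 5 of GRCm38 from 70957597 to 71095849, minus strand) had 258.5, 242.0 and 291.7 CPM in wild-type and 198.9, 264.3 and 261.3 CPM in transgenic libraries. Transgenic 1 was the lowest, and the other transgenic libraries lay inside the wild-type range. The log2 fold change was -0.13 with a 95% confidence interval from -0.40 to 0.15 (edgeR's adjusted p = 0.522). It was 0.070 with GC offsets and -0.0064 without transgenic 1. The transcript has a GC content of 38.4%, the lowest of the 7.

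Gabra4 (ENSMUSG00000029211, chromosome 5 of GRCm38 from 71569749 to 71658308, minus strand) had 113.8, 117.0 and 125.7 CPM in wild-type and 90.6, 107.4 and 123.7 CPM in transgenic libraries. The groups overlapped through transgenic 3, and the log2 fold change was -0.15 with a 95% confidence interval from -0.39 to 0.097. It was -0.018 with GC offsets, -0.040 without transgenic 1 and -0.24 without transgenic 3. The genes Gabra4 and Gabrb1 start on opposite strands and share 196 bp there.

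Gabra3 (ENSMUSG00000031343, chromosome X of GRCm38 from 72432681 to 72656848, minus strand) had 75.0, 60.5 and 62.8 CPM in wild-type and 64.0, 71.1 and 60.7 CPM in transgenic libraries. All 3 transgenic values lay inside the wild-type range. The log2 fold change was -0.020 with a 95% confidence interval from -0.24 to 0.20. It was 0.10 with GC offsets, 0.096 without wild-type 1 and 0.050 without transgenic 3.

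Gabrd, the delta subunit (ENSMUSG00000029054, chromosome 4 of GRCm38 from 155384980 to 155398112, minus strand), had 19.7, 23.8 and 15.5 CPM in wild-type and 24.4, 14.7 and 16.8 CPM in transgenic libraries. It varied most of the 7 within a genotype relative to its level, and the log2 fold change was -0.074 with a 95% confidence interval from -0.57 to 0.42. The values changed sign with the libraries used, to 0.10 without wild-type 2, 0.097 without transgenic 2 and 0.020 without transgenic 3.

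Within a genotype the deviations of the subunits went with the component named above to different degrees. Pearson's r over the 6 libraries was 0.94 for Gabrd, -0.98 for Gabra2, -0.97 for Gabrb1 and -0.83 for Gabra4. It was 0.49 for Gabra5, 0.34 for Gabrb2 and 0.0032 for Gabra3. The component took 65.9% of the variance over 11191 genes, and how many of all genes follow it was not counted. Gabrd had 19.7 to 24.4 CPM in wild-type 1, wild-type 2 and transgenic 1 and 14.7 to 16.8 CPM in wild-type 3, transgenic 2 and transgenic 3. Gabra2, Gabra4 and Gabrb1 were all highest in wild-type 3 among the wild-type libraries and lowest in transgenic 1 among the transgenic ones. These 3 genes lie in 1 cluster on chromosome 5 with Gabrg1. Gabrg1 was also lowest in transgenic 1, but it was highest in wild-type 1, at 33.0 CPM beside 29.7 CPM in wild-type 3. The summed level of the 8 astrocyte markers was 4994 to 5136 CPM in wild-type 1, wild-type 2 and transgenic 1 and 6121 to 6890 CPM in the others. Of the 8, 7 were higher in the others without overlap, and Aldoc overlapped. The 2 sets were drawn from the component of these same data, so genes that follow it separate them by construction. The share of all genes that separate them was not counted. Gfap differed most relative to its level, with 322.9 to 385.6 and 835.8 to 921.9 CPM, and Aldh1l1 had 42.2 to 44.9 and 45.4 to 47.2 CPM. The part of these markers in the values of the subunits was not tested. Gabra2 and Gabrd separated wild-type 1, wild-type 2 and transgenic 1 from the other libraries without overlap. The values of Gabra3, Gabra4, Gabra5, Gabrb1 and Gabrb2 overlapped between these sets.

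**Figure D2:**
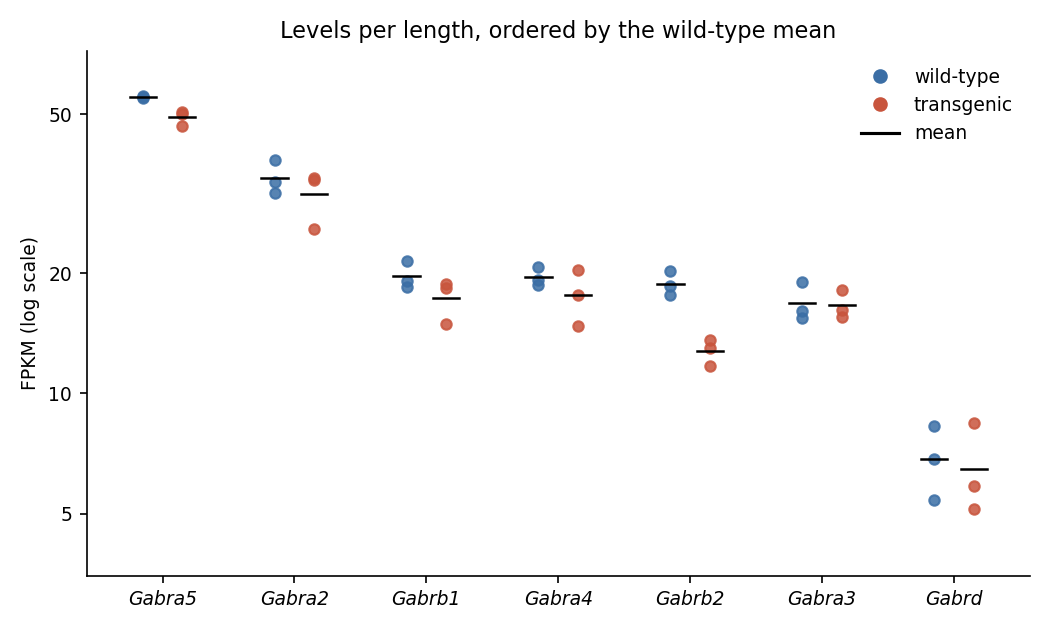
Level per length of the 7 subunits as FPKM on a log axis, in the order of the wild-type means, with a point for each library, blue for wild-type and red for transgenic mice, and a black line at the mean of 3. Gabra5 is highest, at 55.2 FPKM in wild-type, and Gabrd lowest, at 6.85 FPKM, and Gabrb2 lies below Gabra3 without overlap in transgenic libraries.

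To compare levels between subunits, counts were divided by gene length and library total (FPKM). In wild-type mice Gabra5 had 55.2 ± 0.394 FPKM, Gabra2 34.6 ± 3.39, Gabrb1 19.7 ± 1.59, Gabra4 19.5 ± 1.07, Gabrb2 18.8 ± 1.33, Gabra3 16.9 ± 1.93 and Gabrd 6.85 ± 1.44 FPKM (SD, n = 3). Gabra5 was above Gabra2, Gabra2 above Gabrb1 and Gabra3 above Gabrd without overlap. The values of Gabrb1, Gabra4, Gabrb2 and Gabra3 overlapped from each to the next. In transgenic mice Gabra5 had 49.1 ± 2.04, Gabra2 31.6 ± 4.98, Gabra4 17.6 ± 2.78, Gabrb1 17.3 ± 2.11, Gabra3 16.6 ± 1.37, Gabrb2 12.8 ± 0.996 and Gabrd 6.47 ± 1.73 FPKM. Gabrb2 then lay below Gabra3 in 3 of 3 libraries without overlap, whereas in wild-type it lay above Gabra3 in 3 of 3 libraries with overlapping ranges. Whether the order differed between genotypes was not tested.

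Shares within a library do not depend on how libraries are scaled to each other, although they can follow GC content. Gabrb2 made up 11.8%, 10.6% and 10.5% of the summed FPKM of the 7 subunits in wild-type 1 to 3 and 9.06%, 7.50% and 8.79% in transgenic 1 to 3. The mean share fell by 2.51 percentage points, to 8.45%, with an SD of 0.685 in the wild-type and 0.834 in the transgenic group, and the exact two-sided permutation test gave p = 0.1, the smallest possible here. Shares were compared for 7 subunits, and those of the other 6 overlapped between genotypes. Gabra5 held the largest share, 32.2% ± 1.03 in wild-type and 32.5% ± 2.51 in transgenic libraries. The summed FPKM of the 7 subunits was 172.3, 166.3 and 175.9 in wild-type and 143.7, 155.7 and 155.1 in transgenic libraries, so that the sums did not overlap.

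**Figure D3:**
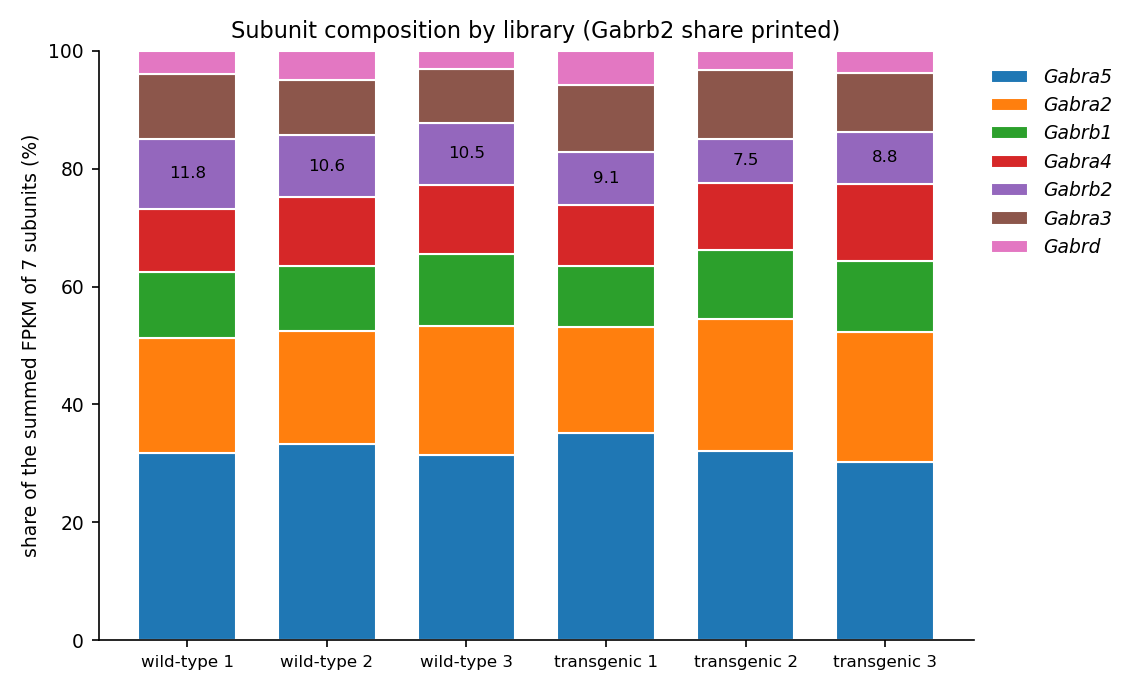
Share of each of the 7 subunits in their summed FPKM, as percent, stacked for each of the 6 libraries, with the share of Gabrb2 printed. The share of Gabrb2 is 10.5% to 11.8% in the wild-type and 7.50% to 9.06% in the transgenic libraries.

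Another 9 GABA-A receptor subunit genes were looked up and 6 of them passed the filter, of which 1 was lower in transgenic mice and 0 were higher at an adjusted p below 0.05 in edgeR's test, with 2 lower and 1 higher at an unadjusted p under 0.05, where the shares of all genes are the 14.8% and 13.0% given above. Gabrg1, the gamma 1 subunit, had 33.0, 28.4 and 29.7 CPM in wild-type and 20.5, 24.2 and 23.7 CPM in transgenic libraries, and a log2 fold change of -0.42 (SE 0.085, edgeR's adjusted p = 0.0358). The groups did not overlap, which is the case for 17.9% of all genes as lower and 16.9% as higher. With GC offsets it did not pass, at -0.14 (edgeR's adjusted p = 0.262). Gabrg1 kept the call without transgenic 1 (edgeR's adjusted p = 0.0467) and lost it without any other library, with edgeR's adjusted p between 0.0589 and 0.141.

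Gabrg3, the gamma 3 subunit, had a log2 fold change of -0.44 (edgeR's adjusted p = 0.0567), without overlap of the groups. It was called lower in 4 of 20 fits, among them DESeq2's, and was at -0.31 with GC offsets (edgeR's adjusted p = 0.200), and adjusted p lay between 0.00978 and 0.255 over the fits. Gabra6, a subunit of cerebellar granule cells, was at most 1.10 CPM in any library, with a log2 fold change of 1.09 that did not pass the test (edgeR's adjusted p = 0.113). Gabrp, Gabrr1 and Gabrr3 did not pass the filter on low counts.

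**Figure D4:**
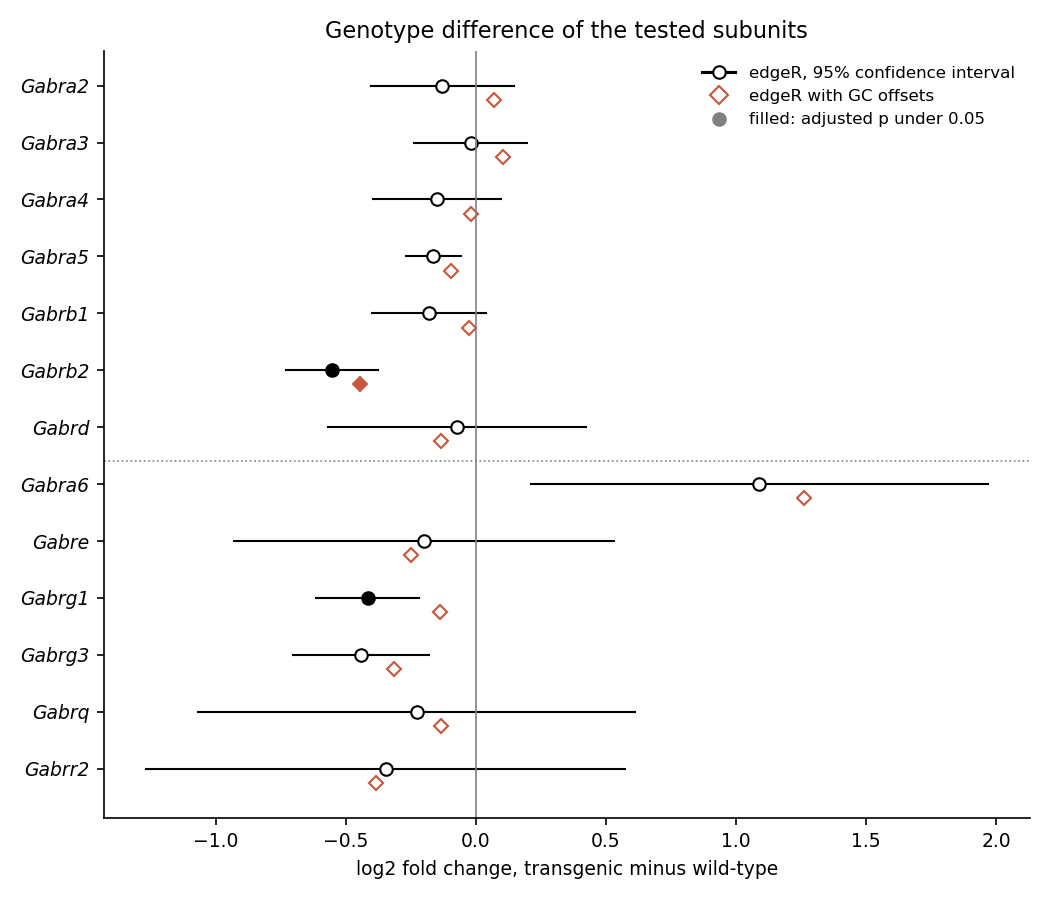
Log2 fold change, transgenic minus wild-type, of 13 tested subunit genes, the 7 described above the dotted line, with the 95% confidence interval from edgeR in black and the value with GC offsets as a red diamond; filled symbols have an adjusted p under 0.05. Gabrb2 is filled in both fits, at -0.55 and -0.45, and Gabrg1 in the first alone.

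Subunit genes stand in clusters on the chromosomes. The cluster of chromosome 5, from 70751047 to 72149037 in GRCm38, holds Gabrg1, Gabra2, Gabra4 and Gabrb1, of which Gabrg1 passed the test. Its left neighbour Gnpda2 had a log2 fold change of -0.16 (edgeR's adjusted p = 0.234) and its right neighbour Commd8 0.016 (edgeR's adjusted p = 0.894). Gabra5 lies beside Gabrg3 on chromosome 7, and the next protein-coding gene beyond Gabrg3, the pigment gene Oca2, averaged 2.87 CPM in the wild-type and 0.317 CPM in the transgenic group, with a log2 fold change of -3.17 (edgeR's adjusted p = 0.00482). Gabra3 lies between Gabre and Gabrq on chromosome X, and Gabrd lies on chromosome 4 between Prkcz and Cfap74. No subunit or neighbour of these last 2 places passed the test.

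Outside the receptor, 30 genes that make, pack, break down, take up or respond to GABA, anchor its receptor or set the chloride gradient were looked up from a list, and all 30 were tested. With the other subunits, 36 genes were tested, 3 were lower and 0 were higher at an adjusted p below 0.05 in edgeR's test, against 4.00% and 3.10% of all genes, and 13 were lower and 3 higher at an unadjusted p under 0.05, against 14.8% and 13.0% of all genes. Their median log2 fold change was -0.12. The groups did not overlap for 12 of the 36 as lower and 4 as higher, against 17.9% and 16.9% of all genes. With GC offsets 1 of the 36 was lower and the median was again -0.12.

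Of 5 genes for the synthesis, packing and breakdown of GABA, 1 was lower at an adjusted p below 0.05, against 4.00% of all genes, and 5 were lower at an unadjusted p under 0.05, against 14.8%. Gad2, an enzyme that makes GABA from glutamate, had 196.2, 182.1 and 155.0 CPM in wild-type and 131.2, 126.7 and 114.6 CPM in transgenic libraries, and a log2 fold change of -0.52 (SE 0.092, edgeR's adjusted p = 0.0272). The groups did not overlap. The call was lost with GC offsets, at -0.41 (edgeR's adjusted p = 0.0804), and without wild-type 1, wild-type 2, transgenic 2 or transgenic 3, with edgeR's adjusted p between 0.0785 and 0.122. Gad1, which makes GABA throughout the cell, had a log2 fold change of -0.28 (edgeR's adjusted p = 0.116), and Slc32a1, the vesicle transporter, -0.27 (edgeR's adjusted p = 0.177), both with overlapping groups. With GC offsets Gad1 was at -0.21 and Slc32a1 at -0.40 (edgeR's adjusted p = 0.276 and 0.0898). Slc32a1 was called lower with GC offsets and the replicate number as a block (-0.40, edgeR's adjusted p = 0.0135). Abat, which breaks GABA down, had -0.17 and Aldh5a1, the next enzyme, -0.13, both without overlap and above the threshold. Of the 5 genes, 3 were lower without overlap, against 17.9% of all genes.

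In the chloride gradient list 1 of 4 genes was lower at an adjusted p below 0.05 and 2 were lower at an unadjusted p under 0.05, with the same shares of all genes. Slc12a2, the transporter NKCC1 that brings chloride into cells, had 135.7, 134.8 and 139.1 CPM in wild-type and 82.5, 91.4 and 96.9 CPM in transgenic libraries, and a log2 fold change of -0.60 (SE 0.062, edgeR's adjusted p = 0.00570). With GC offsets it was -0.50 (edgeR's adjusted p = 0.00381), and it passed without each library in turn. The gene is also used by the choroid plexus, whose markers are lower in transgenic mice as given above, and their part in this value was not tested. Slc12a5, the neuronal transporter KCC2 that carries chloride out, had 508.9, 474.2 and 412.7 CPM in wild-type and 521.1, 420.4 and 422.7 CPM in transgenic libraries, and a log2 fold change of -0.033 with a 95% confidence interval from -0.28 to 0.22.

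None of the 5 GABA-B receptor genes, the 4 uptake transporters and the 12 anchoring and trafficking genes passed edgeR's test at an adjusted p of 0.05, where 2, 0 and 2 were lower and 0, 0 and 2 higher at an unadjusted p under 0.05, against 14.8% and 13.0% of all genes. Gphn, the scaffold gephyrin, had a log2 fold change of -0.17, without overlap. Nlgn2, the adhesion protein of inhibitory synapses, had 0.051 with overlapping groups. Hap1 and Gabarap, which carry receptors to the surface, had 0.28 and 0.22 without overlap, and neither passed (edgeR's adjusted p = 0.0793 and 0.0866). Of the 12 anchoring and trafficking genes, 3 were lower and 3 higher without overlap, against 17.9% and 16.9% of all genes. The GABA-B receptor subunits Gabbr1 and Gabbr2 had -0.073 and 0.074. Of their auxiliary subunits, Kctd16 had -0.63 (edgeR's adjusted p = 0.0920) and Kctd12 -0.26 (edgeR's adjusted p = 0.0960), both without overlap, and Kctd8 had -0.41 with overlapping groups. Kctd16 was called lower in 4 of 20 fits, among them DESeq2's and that with the replicate block, and adjusted p lay between 0.0273 and 0.288 over the fits.

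**Figure D5:**
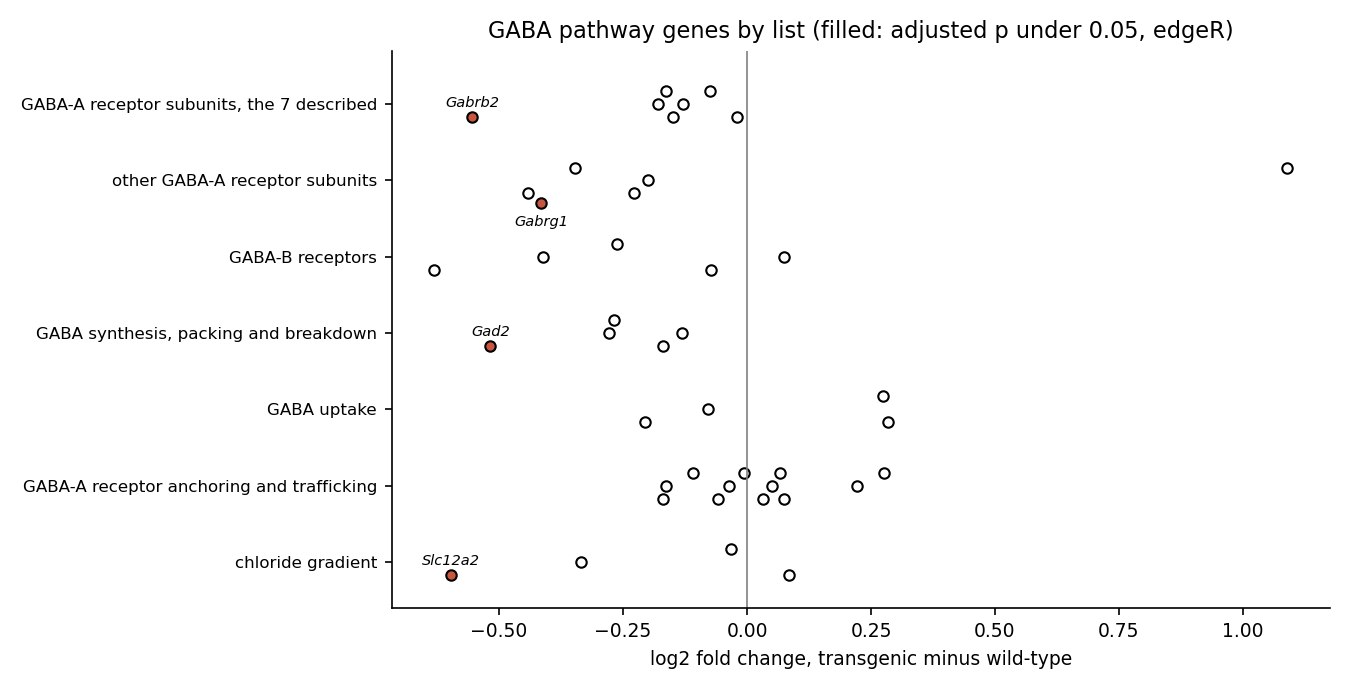
Log2 fold change, transgenic minus wild-type (horizontal axis), of every tested gene in 7 lists of the GABA pathway, a circle for each gene, filled and named where edgeR's adjusted p is under 0.05. The 4 filled genes, Gabrb2, Gabrg1, Gad2 and Slc12a2, lie between -0.60 and -0.42, and no gene above 0 is filled.

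Markers of the cells that express these receptors were read beside the subunits. None of 8 markers of neurons, 7 of CA3 pyramidal neurons, 8 of dentate granule cells and 10 of the thalamus passed edgeR's adjusted threshold, with 1, 0, 0 and 2 lower and 0, 2, 0 and 0 higher at an unadjusted p under 0.05, where 14.8% of all genes were lower and 13.0% higher. Neither did 8 markers each of astrocytes, oligodendrocytes and microglia, with 0 lower in each and 0, 0 and 2 higher at an unadjusted p under 0.05. The summed level of the neuron markers was 6984 to 7317 CPM in wild-type and 6823 to 6922 CPM in transgenic libraries. At the adjusted threshold, which 4.00% of all genes passed as lower, 2 of 8 markers of CA1 pyramidal neurons and 2 of 11 of interneurons were lower, and at an unadjusted p under 0.05 it was 2 and 3, with 0 higher in either list. The CA1 markers past the threshold were Man1a with a log2 fold change of -0.79 and Ndst4 with -0.77. Of the 8 in the list, 4 were below 0 and 4 above 0, up to 0.20 for Fibcd1. The summed level of the CA1 list was 640.0 to 708.6 CPM in wild-type and 550.7 to 749.3 CPM in transgenic libraries. The interneuron markers past the threshold were Erbb4 with -0.56 and Reln with -0.47. Of the 11 in the list, 7 were below 0 and 4 above 0, up to 0.14 for Npy. The summed level of the interneuron list was 459.7 to 520.0 CPM in wild-type and 368.5 to 471.4 CPM in transgenic libraries. With GC offsets Man1a passed (-0.70, edgeR's adjusted p = 0.0166), and Ndst4 (-0.56, edgeR's adjusted p = 0.149), Erbb4 (-0.39, edgeR's adjusted p = 0.0867) and Reln (-0.49, edgeR's adjusted p = 0.0524) did not. All 4 calls were lost without wild-type 1 or transgenic 3, with edgeR's adjusted p between 0.0658 and 0.156. All but that of Man1a were lost without wild-type 2, those of Erbb4 and Ndst4 without transgenic 2, and that of Reln without wild-type 3 or transgenic 1, with edgeR's adjusted p between 0.0509 and 0.130. The part of these cell types in the value of Gabrb2 was not tested.

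The pattern of Gabrb2 over the 6 libraries was compared with that of 11184 other genes by Pearson's r of the log2 CPM, as a description in which the genotypes form separate groups. The 5 genes most like it were Dnajc6 (r = 0.996), Fbxo33 (r = 0.990), C030037D09Rik (r = 0.989), Zfp748 (r = 0.989) and Ift81 (r = 0.988). Their log2 fold changes lay between -0.39 for C030037D09Rik and -0.12 for Dnajc6, so that each differed less between genotypes than Gabrb2.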

How the data were processed

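The authors sequenced hippocampal RNA of 3 wild-type and 3 FVB/NJ-Tg(Orai1)Ibd females. The authors trimmed reads with Trimmomatic, aligned them to mm10 with STAR and deposited counts, the fragments that featureCounts 1.5.0-p1 assigned to each gene, not normalized (per the file headers: pairs, strand setting 2, mapping quality of at least 3, primary alignments, Ensembl 95). STAR's version is not given in the sources used here.

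Libraries were grouped by the genotype label, and all 6 columns were used. Genes were filtered with edgeR's filterByExpr (minimum count 10), scaled by TMM and compared with edgeR's quasi-likelihood test without covariates, with Benjamini-Hochberg adjustment over 19087 genes and a threshold of 0.05. CPM refer to scaled library totals. FPKM used the deposited gene lengths and unscaled totals. GC offsets came from a loess curve (span 0.5) of log2 counts on transcript GC content in each library. The paper's NOISeq was not run. For shares and ratios, exact two-sided permutation tests cannot give a p below 0.1. Positions are from GENCODE M21 (GRCm38), with symbols for 54723 of 54838 genes, and promoter windows from RefSeq on GRCm38.p6. The 7 subunits, the pathway lists and the marker lists were chosen with earlier results of these data known. Some genes of the pathway lists and neighbourhoods are not reported here, and they are in none of the counts over the lists. Named genes are the 7 subunits, genes of these lists with those past the threshold first, neighbours of the subunit clusters, and the 5 genes most like Gabrb2.

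In simulated counts of 18878 genes with 200 changed by a log2 fold change of 1, edgeR found 90.0% of them and 7.22% of 194 calls were false, against 12.9% of 201 calls with the replicate block and 23.1% of 238 calls by DESeq2. The simulated counts held no trend on GC content and no component shared between genes. Their change was larger than that of Gabrb2, -0.55, so these rates may not hold for the data. R 4.3.3, edgeR 4.0.16, limma 3.58.1, DESeq2 1.42.0, Python 3.11.15, numpy 2.4.6, pandas 2.3.3, scipy 1.17.1 and matplotlib 3.10.9 were used. Alternatives were other scalings, filters and tests, length offsets, the replicate number as a block, and fits without each library.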

Additional observations from a re-analysis of the deposited data

How the results depend on the processing

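Gabrb2 was lower in all 20 fits, with log2 fold changes from -0.58 to -0.43, and passed the adjusted threshold in 17 of them. The count of subunits called lower was 1 in every fit with all libraries and 0 to 1 when a library was left out. Other scalings, limma-voom and the stricter filter changed no sign and no call among the 7 subunits and the other pathway genes tracked by name, 23 genes in all, or 22 with that filter. The replicate number as a block moved the counts over all genes to 263 higher and 475 lower, of which 642 of 738 were also called without it. Deviations of same-numbered libraries had correlations between -0.357 and 0.399 over 3 pairs, not every library correlated best with its own number, and the numbers were not taken to pair the libraries. With the block Gabrb2 had edgeR's adjusted p = 0.00881, Gabrg1 lost its call, and 4 other pathway genes were lower, with 1 marker gene higher (1 also with the block and GC or length offsets).

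Over all genes 1055 were higher and 1175 lower by DESeq2's Wald test, 165 and 247 with GC offsets, 376 lower with length offsets, 175 and 240 with both, 167 and 318 with GC offsets and the block, 241 and 355 with length offsets and the block, and 11 to 466 and 66 to 683 without a library. Beside 3 other pathway genes lower and 0 higher, DESeq2 called 7 and 2, a fit without the filter 5 and 1, GC offsets 1 lower, both offsets 1 lower, and fits without a library 1 to 4 lower and 0 to 1 higher. Marker genes higher were 2 by DESeq2, 1 without the filter and 0 to 1 without a library. The median of the 7 subunits was -0.026 with GC offsets, -0.0045 with both offsets and -0.025 with GC offsets and the block. The cause of these shifts was not tested.

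None of the genes whose value changed sign was called in any of the 20 fits. With GC offsets, both offsets, and GC offsets with the block the values were 0.070, 0.096 and 0.072 for Gabra2, 0.10, 0.096 and 0.11 for Gabra3 and -0.068, -0.058 and -0.069 for Nlgn2. Gabbr2 was at -0.00041 with GC offsets and -0.00076 with the block added, and Gabrb1 at 0.045 with both offsets. Length offsets, without and with the block, gave 0.042 and 0.037 for Slc12a5 and 0.0055 and 0.0041 for Gabbr1. Without a library, values lay between -0.063 and 0.096 for Gabra3, -0.32 and 0.10 for Gabrd, -0.14 and 0.053 for Slc12a5 and -0.0079 and 0.11 for Nlgn2. Against the sum of all annotated subunits, with those not reported here, the share of Gabrb2 fell by 1.30 percentage points. With 3 animals in each genotype, changes smaller than those named may go undetected.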
